A study of Mus musculus with 6 samples.

Results

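The collagen genes were taken as all rows of the deposited expression table whose symbol has the form of Col, a type number, the letter a and a chain number. This gave 44 of 55060 genes, of which 6 encode chains of the fibrillar types 1, 3 and 5, 8 encode chains of the basement membrane types 4, 15 and 18, and 30 encode other collagens. RNA sequencing was carried out on hand-picked pancreatic islets of 3 cKO and 3 Ctrl mouse samples. The cKO mice were Ins2-cre; Parn f/f, in which Cre driven by the insulin 2 promoter deletes a floxed exon of Parn in β cells. The Ctrl mice were Parn f/f and other littermates. The islets were from mice 12 weeks of age. Founders of the floxed Parn line came from C57BL/6 zygotes and were bred with C57BL/6, and the strain of the Ins2-cre line was not stated. Neither the sex of the mice, whether animals were pooled, nor whether the individual Ctrl samples carried Cre was stated. Sex and Cre carriage may thus differ between samples or between genotypes, and the spread between samples may also be partly technical. Parn encodes poly(A)-specific ribonuclease, which trims the poly(A) tails of RNA.

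Collagens are trimers of α chains that wind into a triple helix, which requires that each triplet of residues starts with glycine (Gly-X-Y). Fibrillar collagens form the striated fibrils of connective tissue and are made mainly by fibroblasts, whereas type IV collagen forms the sheet of basement membranes, which in the islet surrounds the capillaries, and β cells rest on this vascular basement membrane. Types XV and XVIII link basement membranes to the matrix beneath, type VI forms beaded filaments close to cells, and the FACIT collagens decorate the surface of fibrils.

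The fibrillar and type IV chains differ in their coding sequences, and 4 coding exons from the GENCODE M21 transcripts (GRCm38) are shown with every glycine codon in capitals. They were picked as examples in which the run of Gly-X-Y triplets is unbroken or has a break. In the 3 exons from Col1a1 (codons 204 to 221, chr11:94940118-94940171, plus strand), Col3a1 (codons 176 to 193, chr1:45325360-45325413, plus strand) and Col6a1 (codons 268 to 285, chr10:76719623-76719676, minus strand), each triplet of codons starts with glycine without a break.
Col1a1 exon 9: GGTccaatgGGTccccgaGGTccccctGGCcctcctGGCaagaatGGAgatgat
Col3a1 exon 6: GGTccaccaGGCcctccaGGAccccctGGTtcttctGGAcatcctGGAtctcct
Col6a1 exon 9: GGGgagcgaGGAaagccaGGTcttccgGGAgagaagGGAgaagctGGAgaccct
In the exon from Col4a1 (codons 513 to 576, chr8:11226950-11227141, minus strand), the register breaks once, where the next glycine lies 10 codons on.
Col4a1 exon 25: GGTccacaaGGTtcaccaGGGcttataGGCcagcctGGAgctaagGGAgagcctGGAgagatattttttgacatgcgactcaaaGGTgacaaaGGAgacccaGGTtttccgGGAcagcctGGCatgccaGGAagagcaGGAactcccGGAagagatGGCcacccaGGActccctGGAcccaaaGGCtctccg
Over whole proteins, the longest unbroken Gly-X-Y stretch was 337 to 344 triplets in the 6 fibrillar chains and 39 to 66 triplets in the 6 type IV chains. It was 30 triplets in both Col15a1 and Col18a1 and 87 triplets in both Col6a1 and Col6a2. The type IV chains instead held 16 to 18 separate stretches of at least 10 triplets, against 2 in each fibrillar chain. Coding exons of exactly 54 bases, the length of 6 Gly-X-Y triplets, numbered 21 to 31 in the fibrillar genes and 1 to 3 in the type IV genes. They were counted by length alone. The long helix was not particular to types 1, 3 and 5, since the fibril-forming chains kept among the other collagens had longest stretches of 339 triplets in Col2a1, 338 in Col11a1 and Col11a2, 217 in Col27a1 and 216 in Col24a1.

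**Figure D1:**
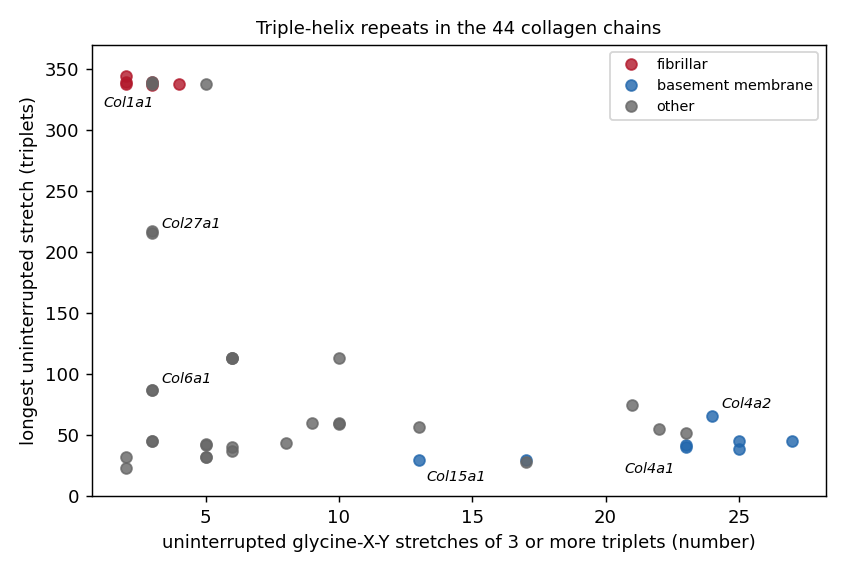
Longest uninterrupted glycine-X-Y stretch in triplets (y axis) against the number of uninterrupted stretches of at least 3 triplets (x axis) in each of the 44 collagen chains, coloured by class; each point is 1 chain and some points coincide. The fibrillar chains lie at 337 to 344 triplets in few stretches, and the type IV chains at 39 to 66 triplets in many.

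Depth was similar among the samples, with 16289408 to 17944775 reads on genes. Parn was present at 6.64, 8.34 and 7.38 FPKM (a read count scaled to gene length and to the size of the library) in Ctrl and at 4.97, 4.61 and 6.15 FPKM in cKO, so the genotypes did not overlap (log2 fold change -0.44, SE 0.13, adjusted p = 0.545 by limma). Islet hormone genes dominated all samples, and mRNA of exocrine acinar cells was also present. The 10 acinar markers, none of them at 0 throughout, summed to 6561 to 18276 FPKM in Ctrl and 8241 to 30417 FPKM in cKO. Ctrl replicate 1 stood apart in white blood cell and cell division genes. Its 8 leukocyte markers summed to 131.8 FPKM, against 25.9 to 41.2 FPKM in the other 5 samples, and its 5 proliferation markers to 10.95 FPKM, against 1.40 to 3.13 FPKM. The collagen results are therefore also given without it. In whole islets, fewer cells of a type and less RNA per cell cannot be told apart.

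The type IV chains Col4a1 and Col4a2, the pair that forms the common network of basement membranes, were the most abundant collagen transcripts in every sample. Col4a1 stood at 16.2, 21.4 and 26.1 FPKM in the Ctrl samples, in replicate order, and at 21.8, 30.8 and 26.1 FPKM in the cKO samples. Col4a2 stood at 12.04, 16.7 and 18.3 FPKM in Ctrl and 15.7, 23.5 and 19.96 FPKM in cKO in the same order. Both genes were lowest in Ctrl replicate 1 and highest in cKO replicate 2, and the genotypes overlapped. Together the 8 basement membrane genes held 48.2% to 60.9% of the summed FPKM of all collagen genes, the 6 fibrillar genes 4.96% to 19.7%, and the 30 others 27.6% to 36.5%. After Col4a1 and Col4a2, the highest means over the 6 samples were Col6a6 at 6.28 FPKM, Col15a1 at 6.05 FPKM, Col3a1 at 5.42 FPKM and Col6a1 at 3.53 FPKM. The sample ranges of Col6a6, Col15a1 and Col3a1 overlapped, so their order was not resolved. FPKM was computed with a gene length that joins the exons of all transcripts, and this length exceeded that of the transcript with the longest coding sequence 2.32 times for Col1a2, 2.11 times for Col6a2 and 1.76 times for Col3a1. Scaled to the coding transcript, the mean of Col3a1 was 9.56 FPKM and it ranked 3 among the collagens instead of 5, while Col1a2 ranked 7 instead of 10. The ratio of FPKM between samples within a gene does not depend on this length. The log2 fold changes and p values below do, since they were taken on log2(FPKM + 1). So does the choice of genes tested, which needed a mean of at least 0.1 FPKM.

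Of the 44 collagen genes, 32 had a mean of at least 0.1 FPKM and were tested with 21211 genes in all. The unadjusted p was under 0.05 in 6 genes that were higher in cKO, namely Col3a1, Col5a1, Col5a2, Col6a1, Col6a2 and Col15a1, while 919 of all genes tested (4.33%) were higher. No collagen gene was lower by limma at this threshold, against 651 of all genes (3.07%). The alternative fit on read counts called 7 higher, the same 6 and Col1a2, and 2 lower, Col27a1 and Col6a6, against 4.65% and 2.81% of all genes. After Benjamini-Hochberg adjustment neither a collagen gene nor any of the genes tested (0.0%) passed 0.05, also by limma voom on the read counts. The smallest adjusted p of a collagen gene was 0.545 by limma on log2(FPKM + 1) and 0.442 by limma voom. Every cKO sample lay above every Ctrl sample in 4 collagen genes, Col6a1, Col6a2, Col9a3 and Col15a1, against 7.11% of all genes tested, and below in none, against 6.03%. With 3 samples against 3, an exact permutation test of a single gene cannot go below p = 0.1. The individual differences below are therefore measured directions that did not pass the test over all genes.

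**Figure D2:**
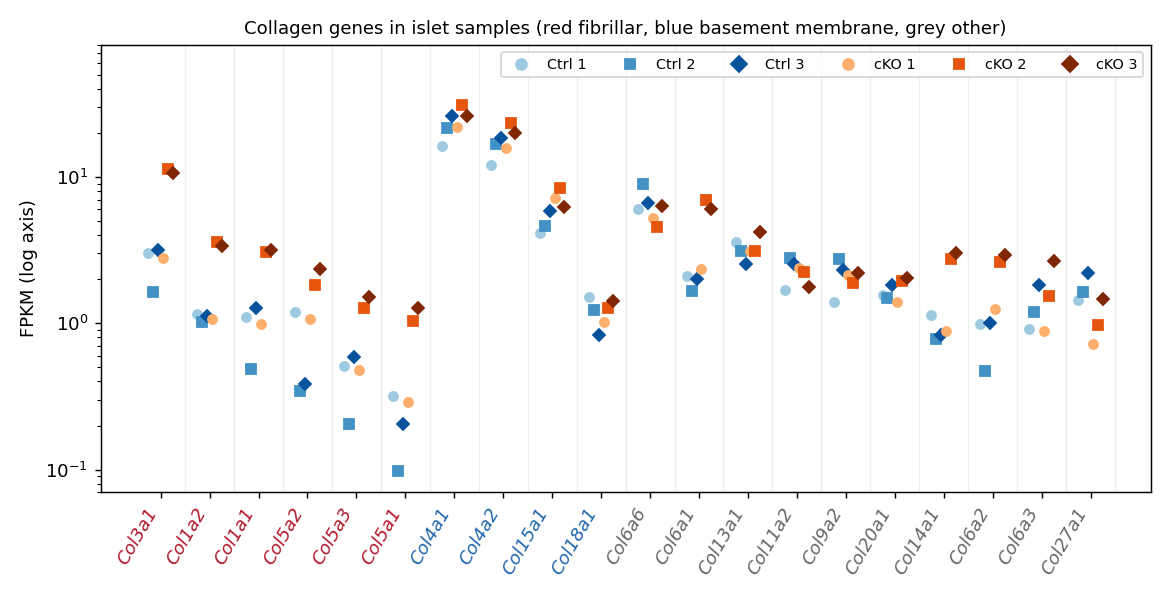
FPKM on a log axis (y) in each of the 6 islet samples for the collagen genes with a mean of at least 1 FPKM and all fibrillar genes (x), with Ctrl in blue and cKO in orange to brown; gene names are red for fibrillar, blue for basement membrane and grey for other collagens. In the fibrillar genes and Col4a2, cKO replicates 2 and 3 lie above the other 4 samples, whereas in Col4a1 only cKO replicate 2 lies above all Ctrl samples.

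Among the fibrillar collagens, all 6 genes were highest in cKO replicates 2 and 3, while cKO replicate 1 stayed within the Ctrl range. Col3a1 (chr1:45311538-45349706), whose product forms homotrimers in reticular fibres, stood at 3.02, 1.63 and 3.18 FPKM in the Ctrl samples, in replicate order, and at 2.78, 11.3 and 10.6 FPKM in the cKO samples. Its mean was 2.61 ± 0.85 FPKM in Ctrl and 8.23 ± 4.74 FPKM in cKO (SD, n = 3 each). The log2 fold change was 1.20 (SE 0.47, adjusted p = 0.659 by limma). Col1a2, the α2 chain of type I collagen, stood at 1.15, 1.01 and 1.13 FPKM in Ctrl and 1.07, 3.58 and 3.35 FPKM in cKO replicates 1, 2 and 3. Thus cKO replicate 1 lay within the Ctrl range in both genes, and the other cKO samples lay above all Ctrl samples.

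Col1a1, the major chain of type I collagen, stood at 1.11, 0.484 and 1.26 FPKM in Ctrl and 0.989, 3.08 and 3.18 FPKM in cKO, in replicate order. Col5a2, a chain of the type V collagen that nucleates type I fibrils, stood at 1.19, 0.345 and 0.382 FPKM in Ctrl and 1.07, 1.81 and 2.33 FPKM in cKO. Here Ctrl replicate 1 lay above cKO replicate 1, so the groups overlapped. Col5a1, the chain common to most type V trimers, stood at 0.317, 0.0973 and 0.205 FPKM in Ctrl and 0.288, 1.04 and 1.26 FPKM in cKO. Col5a3 stood at 0.513, 0.205 and 0.591 FPKM in Ctrl and 0.477, 1.28 and 1.502 FPKM in cKO. The log2 fold changes were 0.75 for Col5a2 (SE 0.26, adjusted p = 0.590 by limma) and 0.59 for Col5a1 (SE 0.22, adjusted p = 0.641), and the type I chains and Col5a3 ranged from 0.51 to 0.75 (adjusted p 0.687 to 0.692). The pseudocount of 1 compresses low genes, and the log2 fold change of Col5a1 was 1.53 with a pseudocount of 0.1 and 1.93 by limma voom.

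The median log2 fold change of the 6 fibrillar genes was 0.74, against -0.01 over all genes tested, and it was 1.31 with a pseudocount of 0.1 and 1.36 by limma voom. Relative to the Ctrl mean of each gene, the median fibrillar level was 1.17, 0.52 and 1.12 in Ctrl and 1.08, 3.25 and 3.54 in cKO, in replicate order. In cKO replicates 2 and 3, 6 of 6 fibrillar genes exceeded all Ctrl samples, and in cKO replicate 1 this held for 0 of 6. Over all genes tested, the share that exceeded all Ctrl samples was 22.8%, 22.9% and 22.2% in cKO replicates 1, 2 and 3. The median was 0.78 without Ctrl replicate 1, 1.01 without cKO replicate 1 and 0.55 without cKO replicate 2. Without cKO replicate 2 no collagen gene had an unadjusted p under 0.05 in limma, without cKO replicate 3 there were 2 higher, Col15a1 and Col28a1, and without Ctrl replicate 2 only Col15a1 was higher. Over all genes tested, the shares that were higher in these 3 fits were 3.50%, 3.51% and 3.21%. Without cKO replicate 3, Col27a1 and Col6a6 were lower at this threshold, against 1.89% of all genes.

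The summed markers of fibroblasts were highest in cKO replicates 2 and 3, as the fibrillar genes were. Without the collagens on the list, the 6 fibroblast markers, none of them at 0 throughout, summed to 18.1, 8.62 and 9.27 FPKM in Ctrl and 13.9, 34.2 and 41.7 FPKM in cKO replicates 1, 2 and 3. Dcn, the proteoglycan decorin, which binds collagen fibrils, stood at 7.03, 1.56 and 2.36 FPKM in Ctrl and 3.43, 11.7 and 15.2 FPKM in cKO. Dpt, dermatopontin, stood at 4.75, 2.36 and 2.13 FPKM in Ctrl and 3.86, 9.61 and 12.8 FPKM in cKO. As in the fibrillar collagens, the highest levels of both were in cKO replicates 2 and 3. Of the 6 markers, 1, 5 and 6 exceeded all Ctrl samples in cKO replicates 1, 2 and 3. Over all genes tested these shares were 22.8%, 22.9% and 22.2%. The exception in cKO replicate 2 was Pi16, at 1.60 FPKM against 1.90 FPKM in Ctrl replicate 1. Ctrl replicates 1 and 3 differed in the marker sum, while their median fibrillar levels were 1.17 and 1.12. Lum, lumican, was the only one of the 6 in which every cKO sample exceeded every Ctrl sample, at 1.31, 0.597 and 1.13 FPKM in Ctrl and 2.33, 5.76 and 3.77 FPKM in cKO (log2 fold change 1.26, SE 0.28, adjusted p = 0.406 by limma). The part of these markers in the collagen differences was not tested. The acinar markers followed another order, with a median relative level of 2.61, 0.71 and 2.01 in cKO replicates 1, 2 and 3.

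**Figure D3:**
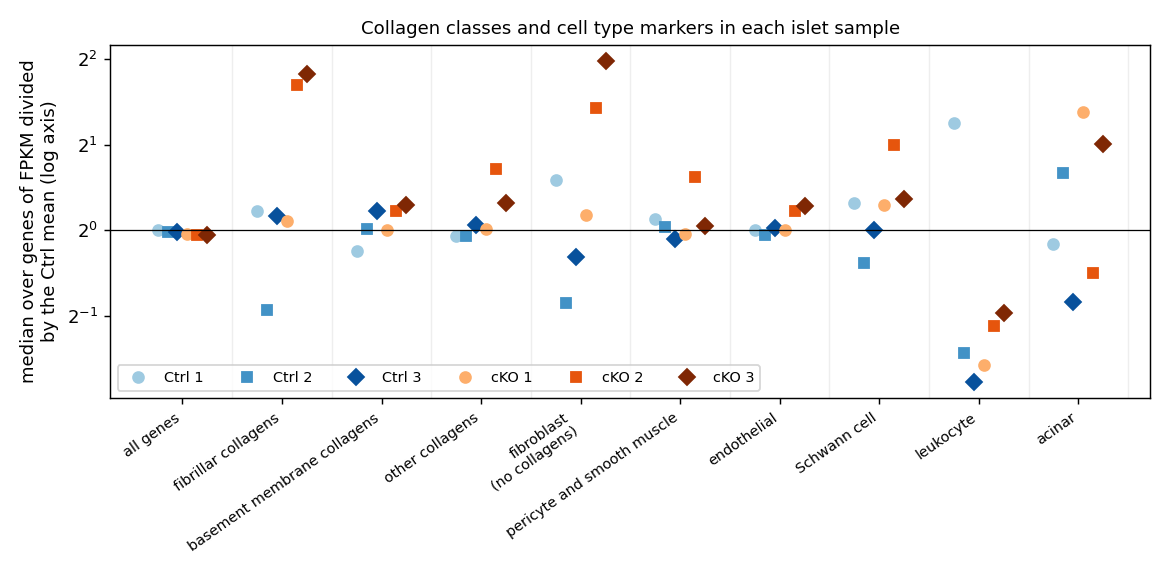
Median over genes of the FPKM in a sample divided by the Ctrl mean of the gene (y, log axis) for all genes tested, the 3 collagen classes and 6 lists of cell type markers (x), with 1 point per islet sample. Fibrillar collagens reach 3.25 and 3.54 in cKO replicates 2 and 3, where the fibroblast markers reach 2.68 and 3.94, and all genes stay between 0.963 and 0.998.

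The differences of the basement membrane collagens were smaller. Col15a1 was higher in all cKO samples, and the tested type IV chains overlapped between genotypes, as the fibrillar genes did. In Col4a2, cKO replicates 2 and 3 lay above all Ctrl samples, at 23.5 and 19.96 FPKM against at most 18.3 FPKM, as in the fibrillar genes. Col15a1 (chr4:47208161-47313167), which encodes a chain that lies at the outer face of vascular basement membranes, stood at 4.11, 4.65 and 5.85 FPKM in the Ctrl samples, in replicate order, and at 7.14, 8.39 and 6.17 FPKM in the cKO samples. Its mean was 4.87 ± 0.89 FPKM in Ctrl and 7.23 ± 1.11 FPKM in cKO (SD, n = 3 each). The log2 fold change was 0.49 (SE 0.15, adjusted p = 0.546 by limma). The gap between the highest Ctrl and the lowest cKO sample was small, at 5.85 and 6.17 FPKM. Of the collagens named here, Col15a1 had an unadjusted p under 0.05 most often, in 15 of 16 alternative fits, the exception being the fit without cKO replicate 2. Without Ctrl replicate 1 its log2 fold change was 0.40.

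For Col4a1 the log2 fold change was 0.30 (SE 0.20, adjusted p = 0.811 by limma), and for Col4a2 it was 0.32 (SE 0.20, adjusted p = 0.796). Without Ctrl replicate 1, in which both were lowest, these values were 0.13 and 0.15. Col18a1, the source of endostatin, stood at 1.502, 1.24 and 0.830 FPKM in Ctrl and 1.01, 1.28 and 1.42 FPKM in cKO in replicate order, a log2 fold change of 0.04. Its genotypes overlapped, and the direction turned without Ctrl replicate 3 or cKO replicate 3. Col4a3, Col4a4 and Col4a5, chains of the specialised networks known from the kidney, had means of 0.225 to 0.234 FPKM and log2 fold changes of -0.03 to 0.07. Col4a6 had 34 reads in all samples together and was not tested. The median log2 fold change of the 7 tested basement membrane genes was 0.07, and it was 0.27 with a pseudocount of 0.1, 0.31 over genes with a mean of at least 1 FPKM and 0.32 by limma voom.

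Col4a1 and Col4a2 lie head to head on chromosome 8, with RefSeq starts such that the first 22 bases of both genes are shared on opposite strands (chr8:11312805-11312826, GRCm38.p6, plus strand), shown because the pair varied together.
Col4a1 and Col4a2 shared start: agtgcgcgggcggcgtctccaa
The ratio of Col4a1 to Col4a2 was 1.34, 1.28 and 1.43 in Ctrl and 1.39, 1.31 and 1.31 in cKO, although Col4a1 itself ranged from 16.2 to 30.8 FPKM. It was thus the steadiest of the chain ratios that were formed. The ratio of Col1a1 to Col1a2, which make a trimer of 2 α1 chains and 1 α2 chain, was 0.962, 0.478 and 1.12 in Ctrl and 0.922, 0.862 and 0.949 in cKO. The low value in Ctrl replicate 2 rested on 50 reads of Col1a1. With coding transcript lengths, the ratio was 0.228 to 0.534. For Col6a1 to Col6a2 the ratio was 1.87 to 3.53, or 0.947 to 1.79 with coding transcript lengths. The ratio of Col3a1 to Col5a2, neighbours on chromosome 1, was more variable, at 2.54 to 8.33, and that of Col4a3 to Col4a4 was 0.690 to 1.45. For Col4a5 to Col4a6 the ratio was 2.29 to 33.2 in the 5 samples with reads of Col4a6, too few for a comparison.

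**Figure D4:**
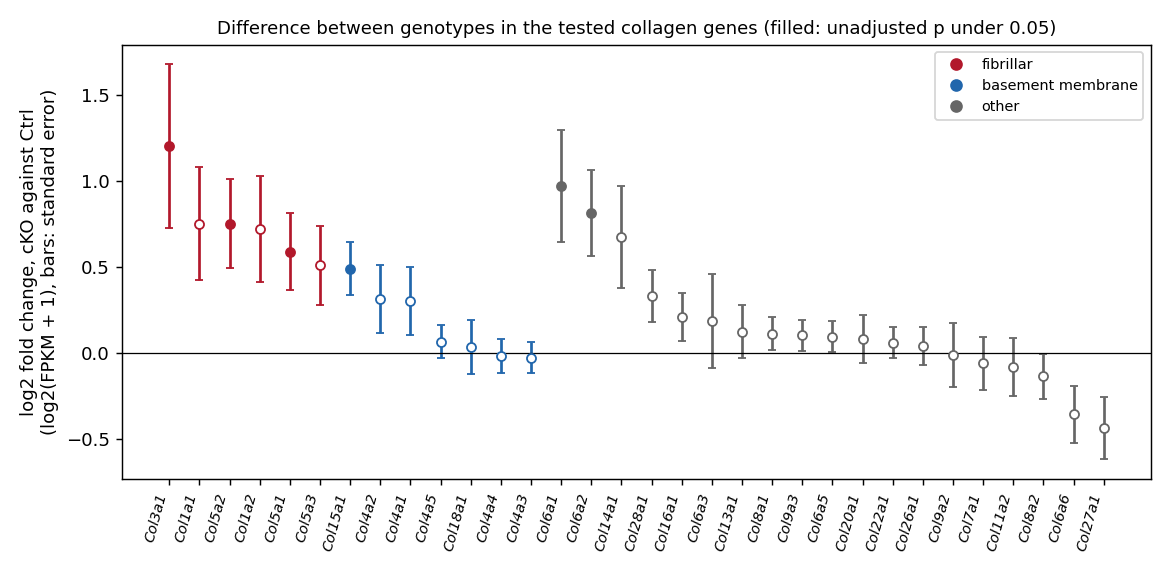
Log2 fold change of cKO against Ctrl on the log2(FPKM + 1) scale (y, bars are the standard error) for the 32 tested collagen genes (x), coloured by class, filled where the unadjusted p of limma was under 0.05. All 6 fibrillar genes lie above 0, from 0.51 to 1.20, and the basement membrane genes lie between -0.03 and 0.49.

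Among the other collagens, the beaded filament genes divided. Col6a1 (chr10:76708792-76726168), the α1 chain of type VI collagen, stood at 2.11, 1.67 and 2.02 FPKM in the Ctrl samples, in replicate order, and at 2.34, 6.999 and 6.06 FPKM in the cKO samples. The log2 fold change was 0.97 (SE 0.33, adjusted p = 0.583 by limma). Col6a2, which pairs with it in the same trimer, stood at 0.991, 0.473 and 0.996 FPKM in Ctrl and 1.25, 2.63 and 2.90 FPKM in cKO. The log2 fold change was 0.81 (SE 0.25, adjusted p = 0.545 by limma). In both genes every cKO sample exceeded every Ctrl sample, but cKO replicate 1 lay close to the Ctrl range. Without Ctrl replicate 1 the log2 fold changes were 1.01 and 0.89.

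Col6a3, the third chain of the classical trimer, stood at 0.915, 1.19 and 1.83 FPKM in Ctrl and 0.885, 1.53 and 2.66 FPKM in cKO and overlapped between the genotypes (log2 fold change 0.19, and -0.06 without cKO replicate 3). Col6a6, an alternative chain in place of α3, stood at 6.05, 8.88 and 6.64 FPKM in Ctrl and 5.24, 4.56 and 6.33 FPKM in cKO. It was the most abundant of the other collagens, and its mean was 7.19 ± 1.49 FPKM in Ctrl and 5.38 ± 0.89 FPKM in cKO (SD, n = 3 each). The log2 fold change was -0.35 (SE 0.17, adjusted p = 0.700 by limma). The genotypes overlapped through cKO replicate 3 and Ctrl replicate 1.

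Of the FACIT collagens, Col14a1, which binds to the surface of type I fibrils, followed the fibrillar genes, at 1.14, 0.780 and 0.831 FPKM in Ctrl and 0.885, 2.75 and 3.01 FPKM in cKO (log2 fold change 0.68, SE 0.30, adjusted p = 0.691 by limma). Col16a1 had the same 2 high samples, at 0.971 and 1.01 FPKM in cKO replicates 2 and 3 against 0.499 to 0.631 FPKM in the other 4. Col20a1 stood at 1.55, 1.48 and 1.84 FPKM in Ctrl and 1.39, 1.95 and 2.02 FPKM in cKO. Its cKO replicates 2 and 3 also lay above all Ctrl samples, though by little. Col9a2, a chain of the type IX collagen known from cartilage, stood at 1.39, 2.75 and 2.31 FPKM in Ctrl and 2.13, 1.90 and 2.20 FPKM in cKO. Like Col14a1 and Col16a1, Col20a1 and Col9a2 overlapped between genotypes. The log2 fold changes of Col20a1 and Col9a2 were 0.08 and -0.01. Col9a3 did not overlap, at 0.193 to 0.218 FPKM in Ctrl and 0.244 to 0.343 FPKM in cKO, but this rested on 13 to 23 reads per sample and its adjusted p was 0.823 in limma.

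Col27a1, a fibril-forming collagen known from cartilage, went against the types 1, 3 and 5, at 1.44, 1.64 and 2.22 FPKM in Ctrl replicates 1, 2 and 3 and at 0.726, 0.972 and 1.47 FPKM in cKO replicates 1, 2 and 3. The means were 1.77 ± 0.40 FPKM in Ctrl and 1.06 ± 0.38 FPKM in cKO (SD, n = 3 each). The log2 fold change was -0.43 (SE 0.18, adjusted p = 0.678 by limma). The groups overlapped, since cKO replicate 3 lay just above Ctrl replicate 1. Col11a2, a chain of type XI collagen, stood at 1.69, 2.77 and 2.54 FPKM in Ctrl and 2.39, 2.25 and 1.77 FPKM in cKO and overlapped. The transmembrane collagen Col13a1 stood at 3.61, 3.13 and 2.55 FPKM in Ctrl and 3.12, 3.11 and 4.19 FPKM in cKO and overlapped as well. Without Ctrl replicate 1, Col27a1 and Col6a6 had an unadjusted p under 0.05 in the lower direction and 6 collagen genes in the higher, with Col28a1 in place of Col3a1, against 5.45% and 5.87% of all genes tested. Without cKO replicate 1, 11 collagen genes were higher and none lower, against 3.94% and 2.43% of all genes. These 11 were the 6 fibrillar genes, Col6a1, Col6a2, Col14a1, Col15a1 and Col16a1.

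The median log2 fold change of the 19 tested other collagens was 0.10, and 13 were above 0, against 9856 of the 21211 genes tested. With a pseudocount of 0.1 and by limma voom this median was 0.27 and 0.35. The 14 tested collagens with a mean under 1 FPKM included Col28a1, which stood at 0.795, 0.506 and 0.539 FPKM in Ctrl and 1.06, 1.33 and 0.733 FPKM in cKO. The 12 collagens that were not tested had 3 to 154 reads in all samples together, and 8 of the 44 genes were listed at 0 in at least 1 sample. Among the untested were Col2a1 of cartilage, with 7 reads in all, Col10a1 of the growth plate, with 10, Col17a1 of hemidesmosomes, with 5, and Col12a1, with 154. Exons of 13 collagen genes overlap another annotated gene, and whether reads were counted by strand was not stated. The overlap is 141 bases with Gm47302 on the same strand in Col3a1, 14 bases with Gm12426 on the opposite strand in Col15a1 and 63 bases with Gm38314 on the opposite strand in Col6a6.

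Of the enzymes that hydroxylate and glycosylate collagen chains in the endoplasmic reticulum, 1 of 14 tested genes was higher at an unadjusted p under 0.05 and none lower, with a median log2 fold change of 0.10. Over all genes tested, 4.33% were higher and 3.07% lower at this threshold, and the counts of each list below are to be read beside these shares. That gene was Plod2, lysyl hydroxylase 2, at 0.648, 0.271 and 0.502 FPKM in Ctrl and 0.655, 0.971 and 1.10 FPKM in cKO. P4hb and P3h4 were the most abundant of the list, with P4hb at 239.4 to 255.9 FPKM in Ctrl and 256.9 to 327.7 FPKM in cKO. P4hb is also the general protein disulfide isomerase of secretory cells. Of the chaperones and export factors, 1 of 8 was higher, which was Sec24d, a cargo subunit of COPII vesicles, at 24.04, 18.8 and 18.3 FPKM in Ctrl and 30.3, 31.7 and 23.8 FPKM in cKO (log2 fold change 0.47, adjusted p = 0.555 by limma). The collagen chaperone Serpinh1 overlapped, at 10.4 to 15.7 FPKM in Ctrl and 13.2 to 18.1 FPKM in cKO. Mia3 was the most abundant of this list.

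Processing and cross-linking genes had 1 higher and 1 lower of 10 tested, against 4.33% and 3.07% of all genes, with a median log2 fold change of 0.30. Bmp1, the protease that removes the C-terminal propeptides of fibrillar procollagens, stood at 9.42, 10.6 and 11.3 FPKM in Ctrl and 17.8, 14.1 and 15.8 FPKM in cKO (log2 fold change 0.56, SE 0.11, adjusted p = 0.385 by limma). Unlike the fibrillar collagens themselves, it was highest in cKO replicate 1. Loxl2, a lysyl oxidase, was lower, at 2.59, 3.03 and 3.30 FPKM in Ctrl and 2.11, 1.96 and 2.56 FPKM in cKO (adjusted p = 0.671 by limma). Loxl1 had the order of the fibrillar genes, at 1.16, 0.366 and 0.784 FPKM in Ctrl and 0.691, 2.34 and 2.90 FPKM in cKO. Sparc, a matricellular protein that binds collagen, was the most abundant of the list, at 20.7 to 29.9 FPKM in Ctrl and 29.8 to 48.2 FPKM in cKO.

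None of the 9 tested collagen receptors had an unadjusted p under 0.05 in limma. The most abundant, Itgb1 and Ddr1, overlapped, with Ddr1 at 35.3 to 53.0 FPKM in Ctrl and 39.2 to 46.9 FPKM in cKO. Of 11 tested genes of collagen breakdown, 1 was higher, against 4.33% of all genes. It was the gelatinase Mmp2, at 1.003, 0.321 and 0.357 FPKM in Ctrl and 0.642, 2.49 and 3.94 FPKM in cKO. The neutrophil collagenase Mmp8 and the gelatinase Mmp9 were high in Ctrl replicate 1, at 3.71 and 7.13 FPKM, and at most 0.228 and 0.797 FPKM in the other samples, with the leukocyte markers given above. The inhibitors Timp2 and Timp3 were the most abundant of this list.

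Of 14 tested basement membrane genes other than collagens, 13 had a positive log2 fold change, against 9856 of the 21211 genes tested. The median was 0.19. Only 1, Agrn, had an unadjusted p under 0.05 in limma, against 4.33% of all genes that were higher. Agrn, the proteoglycan agrin, stood at 3.46, 3.45 and 3.19 FPKM in Ctrl and 3.77, 4.94 and 4.29 FPKM in cKO. The laminin chain Lamc1 and the proteoglycan Hspg2, the most abundant of the list, overlapped. Of 21 tested genes of the other stromal matrix, 4 were higher and none lower, against 4.33% and 3.07% of all genes, with a median of 0.41. The 4 were Emilin1, Fbln5, Lum and Dpt, of which Lum and Dpt were also on the fibroblast list. Emilin1, an elastic fibre glycoprotein, stood at 27.1, 24.9 and 23.02 FPKM in Ctrl and 42.6, 43.8 and 38.1 FPKM in cKO (log2 fold change 0.71, SE 0.10, adjusted p = 0.274 by limma). It was high in all 3 cKO samples, as Bmp1 was, whereas the fibrillar collagens were high in 2. Fn1, fibronectin, was at 17.6 FPKM in Ctrl replicate 1 and at 0.223 to 2.29 FPKM in the other samples. In the TGF-β axis, which drives collagen synthesis in fibroblasts, none of 16 genes was higher and 1, Ltbp2, was lower, at 0.539 to 0.698 FPKM in Ctrl and 0.243 to 0.278 FPKM in cKO, and the median was 0.12.

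Of the cell types that deposit basement membrane, the 10 endothelial markers summed to 160.8, 150.0 and 167.1 FPKM in Ctrl and 165.8, 185.7 and 204.0 FPKM in cKO, in replicate order. Plvap, of fenestrated capillaries, was at 57.7 to 72.4 FPKM in Ctrl and 80.6 to 101.5 FPKM in cKO, and Cdh5, VE-cadherin, at 5.73 to 6.61 FPKM and 6.68 to 9.05 FPKM. These 2 of 10 had an unadjusted p under 0.05, against 4.33% of all genes that were higher. Both were higher in all cKO samples, as Col15a1 was. Esm1, of the same list, was at 26.8 to 37.1 FPKM in Ctrl and 25.2 to 26.8 FPKM in cKO. The 10 pericyte and smooth muscle markers summed to 41.8, 41.4 and 30.01 FPKM in Ctrl and 37.2, 59.0 and 44.5 FPKM in cKO. In both sums, as in the fibrillar collagens, cKO replicates 2 and 3 were highest and cKO replicate 1 lay within the Ctrl range. The 8 Schwann cell markers summed to 7.75 to 13.8 FPKM and 17.3 to 24.1 FPKM. In the latter, Ngfr, which other stromal cells also express, gave most of the difference, at 0.576 to 3.94 FPKM in Ctrl and 7.83 to 14.5 FPKM in cKO. No marker of these lists was at 0 in all samples, and their part in the levels of Col15a1 and the other collagens was not tested.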

How the data were processed

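The authors extracted islet RNA by the TRIzol method, used a SMARTER kit for mRNA libraries, and deposited 1 table of FPKM values per gene (GRCm38), while the aligner, counter and annotation release are not given in the sources used here. Each deposited FPKM value came back as a whole number of reads (100% within 0.05 of a whole read) once the divisor of the sample was solved from its lowest values. That divisor was 0.955 to 1.07 times the summed reads. Groups followed the labels. The main test was limma 3.58.1 in R 4.3.3 on log2(FPKM + 1), two-sided, with an empirical Bayes trend and Benjamini-Hochberg adjustment over genes with a mean of at least 0.1 FPKM, so fold changes understate low genes. The script was tested on simulated data. Alternatives were other pseudocounts, filters and scalings, limma voom on the read counts, array weights, a replicate block and each sample left out. Gene coordinates were checked against GENCODE M21, where 44 of 44 collagens matched, and glycine repeats were read from the transcript with the longest coding sequence. Ctgf is listed under its older symbol. Collagens with a mean of at least 1 FPKM or an unadjusted p under 0.05 were named with values in each sample, and of the pathway and marker lists the genes with both, plus the 2 most abundant. The members, lists and tests were chosen with earlier results of these data known. Figures were drawn with matplotlib 3.10.9. A sequence that is withheld is not reported here.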

Additional observations from a re-analysis of the deposited data

How the results depend on the processing

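Over 16 alternative fits, 624 of 635 log2 fold changes of single genes kept their direction and stayed above an adjusted p of 0.05, as did Parn (-0.54 to -0.37), and no collagen gene reached an adjusted p of 0.05. The number of collagen genes higher in cKO was 10 with array weights and 0 to 11 when 1 sample was left out. With array weights, 5.97% of all genes were higher and 5.87% lower, and 3.21% to 5.87% were higher when 1 sample was left out. The number lower was 1 with a pseudocount of 0.1, without the trend, with array weights and with the replicate block, 2 by voom, and 0 to 2 when 1 sample was left out. The shares of all genes lower in these fits were, in the same order, 3.12%, 3%, 5.87%, 2.54%, 2.81%, and 1.89% to 5.45%. The median of the fibrillar genes was 1.31 with a pseudocount of 0.1 and 1.36 by voom, and 0.55 to 1.01 in the fits with a sample left out. That of the basement membrane genes was 0.27 with a pseudocount of 0.1, 0.31 with a minimum mean of 1 FPKM and 0.32 by voom, with 0.04 to 0.13 when a sample was left out. That of the other collagens was 0.27 and 0.35 with the first and the last of these, with 0.02 to 0.11 when a sample was left out. A smaller pseudocount and voom weigh low genes more by construction, and the other causes were not tested. Directions turned for Col9a2 (-0.20 to 0.13 over the fits with a sample left out, and 0.000026 with a pseudocount of 0.1, 0.0055 with quantile normalization, 0.018 by voom, 0.13 without Ctrl replicate 2, 0.037 without Ctrl replicate 3, 0.032 without cKO replicate 2), Col11a2 (-0.23 to 0.017 over those fits, 0.017 without Ctrl replicate 2, 0.0071 without cKO replicate 3), Col18a1 (-0.086 to 0.14, -0.086 without Ctrl replicate 3, -0.021 without cKO replicate 3) and Col6a3 (-0.063 to 0.42, -0.063 without cKO replicate 3). Over all genes tested, the deviations of samples with the same replicate number had correlations of -0.171, -0.0219 and -0.0652. These values cannot decide whether the samples were paired, since they rest on 3 samples per group, and the labels do not state a pairing. With the replicate block 4 collagen genes were higher and 1 lower, against 3.47% and 2.54% of all genes. Without Ctrl replicate 1, 10 genes in all were higher and 4 lower at an adjusted p under 0.05, none of them a collagen.

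Of the 32 tested collagens, 14 had a mean under 1 FPKM, where counting error is large.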
